A study of Mus musculus with 4 samples.

Results

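The enzymes that oxidise fatty acids in mitochondria and peroxisomes, together with the peroxins that build peroxisomes, were followed in cultured mouse pancreatic acinar cells given an adenovirus for estrogen-related receptor γ (ERRγ, gene Esrrg). The members were chosen by name, with earlier results of these data known. They were 26 listed mitochondrial and 7 listed peroxisomal genes, and each of the 17 rows whose symbol starts with Pex and a digit. That gave 50 of the 23282 rows in the count tables. The mitochondrial set holds the acyl-CoA synthetases and carnitine acyltransferases that feed the pathway as well as its own enzymes. Primary acinar cells of C57BL/6J mice received virus for ERRγ or, as the control, for green fluorescent protein (GFP), at a multiplicity of infection of 100 for 36 h. Both groups therefore received an adenovirus, and all samples were kept with 25 ng/ml epidermal growth factor, 2.5% serum and trypsin inhibitor at 0.25 mg/ml. There were 2 libraries per virus, and the labels leave unsaid whether each came from its own animal or culture. The p-values therefore weigh the spread among these libraries alone, and part or all of it may be technical.

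Fatty acids are tied to coenzyme A by acyl-CoA synthetases, passed into mitochondria as carnitine esters, and shortened there in a repeating spiral of oxidation, hydration, oxidation and cleavage. The electrons reach the respiratory chain through the electron transfer flavoprotein. Peroxisomes run a parallel spiral on very long and branched chains, in which an oxidase hands its electrons to oxygen, and they depend on peroxins to import their enzymes. ERR receptors and the peroxisome proliferator-activated receptors (PPARs) are both known as regulators of fatty acid oxidation genes in heart and muscle.

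Each transcript was read near its poly(A) end. Totals ran from 10105604 to 11012351 counts per library, and 3 counts in a library corresponded to 0.268 to 0.307 CPM. Levels are counts-per-million (CPM) on library sizes scaled by the trimmed mean of M-values (TMM), intervals on fold changes are 95% intervals from the fit, and floors cover counting error only. Esrrg itself stood at 130 and 1284 CPM in ERRγ libraries 1 and 2, against 8.80 and 9.60 CPM in GFP libraries 1 and 2, so the ERRγ libraries differed widely in the gene that the virus carried. Of 15 acinar markers, Ptf1a and Ctrc had no count in any library, and the list summed to 102 and 102 CPM with ERRγ and to 112 and 51.1 CPM with GFP. In that list 1 of 10 tested genes, Prss2, rose. Acinar markers were thus low in both groups, despite the label. Summed marker levels of hepatocytes, fibroblasts, endothelium, leukocytes and islets overlapped between the groups and in these lists edgeR called 0 genes at an adjusted p of 0.05, the threshold used throughout. Ductal markers summed to 2454 and 2945 CPM with ERRγ and 3238 and 3141 CPM with GFP. In that list of 8 genes 2 rose and 2 fell. Striated muscle markers summed to 94.1 and 80.6 CPM with ERRγ and 177 and 134 CPM with GFP. In that list 1 of 3 tested genes, Acta1, fell, and Myh6, Myh7, Myl2 and Mb had no count in any library. Adipocyte markers summed to 12.0 and 11.6 CPM with ERRγ and 1.74 and 1.62 CPM with GFP. In that list Fabp4 was the 1 of 2 tested genes that rose. The other, Cidea, was counted 34 and 38 times with ERRγ and 9 and 4 times with GFP (adjusted p = 0.0631, edgeR). Ucp1, at 8 and 13 counts, and Cidec and Cfd, at fewer, were counted in both ERRγ libraries and in neither GFP library. Adipoq and Retn overlapped between groups, and Plin1 and Lep had no count in any library. The part of these marker shifts in the results below was not tested, and in bulk RNA fewer cells of a type and less RNA per cell cannot be told apart.

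Of the 50 members, 48 had enough counts to test, and 3 rose with ERRγ, which is 6.25%. They were Acadvl, Acat1 and Acox3, and their levels were between 2.03-fold and 2.08-fold those with GFP. Among all 13070 genes tested, 5.06% rose, so the members' share lay near the background. In edgeR's quasi-likelihood test 0 members fell, against 1.78% of all genes; at an unadjusted p under 0.05, 9 members were higher and 2 lower. Those are 18.8% and 4.17% of the tested members, against 13.6% and 9.53% of all genes. DESeq2 and limma-voom also called 3 members higher and 0 lower. The members left untested were Ehhadh and Pex5l. Most members differed by less than could be told from the spread of 2 libraries per group, and each interval below shows what size of difference the data allow.

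The members' levels leaned upward without most of them passing the test. The members were chosen with earlier results of these data known, so this lean is no independent support for a response of the pathway. In 22 of 48 members both ERRγ libraries lay above both GFP libraries (45.8%, against 27.4% of all genes), and in 8 both lay below (16.7%, against 26.6%). The median log2 fold change was 0.11 over the members and −0.01 over all genes tested. It was 0.12 over the 26 mitochondrial members, 0.37 over the 6 tested peroxisomal enzymes and 0.01 over the 16 tested peroxins. Counts of genes that rose were 2, 1 and 0 in the same order, and a difference between these classes was not tested. Summed over its genes, the mitochondrial class stood at 1457 and 1513 CPM with ERRγ and at 1329 and 1377 CPM with GFP, a difference of 9.74% between the means. Without Acadvl and Acat1 the sums were 1310 and 1353 CPM with ERRγ, against 1258 and 1298 CPM with GFP. The peroxisomal enzymes summed to 289 and 307 CPM with ERRγ and 226 and 241 CPM with GFP, and without Acox3 to 254 and 267 CPM with ERRγ and 209 and 222 CPM with GFP. Peroxins summed to 296 and 290.2 CPM with ERRγ and to 279 and 276 CPM with GFP. In each of these sums both ERRγ libraries lay above both GFP libraries, by a margin that was widest, relative to GFP, for the peroxisomal enzymes.

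**Figure D1:**
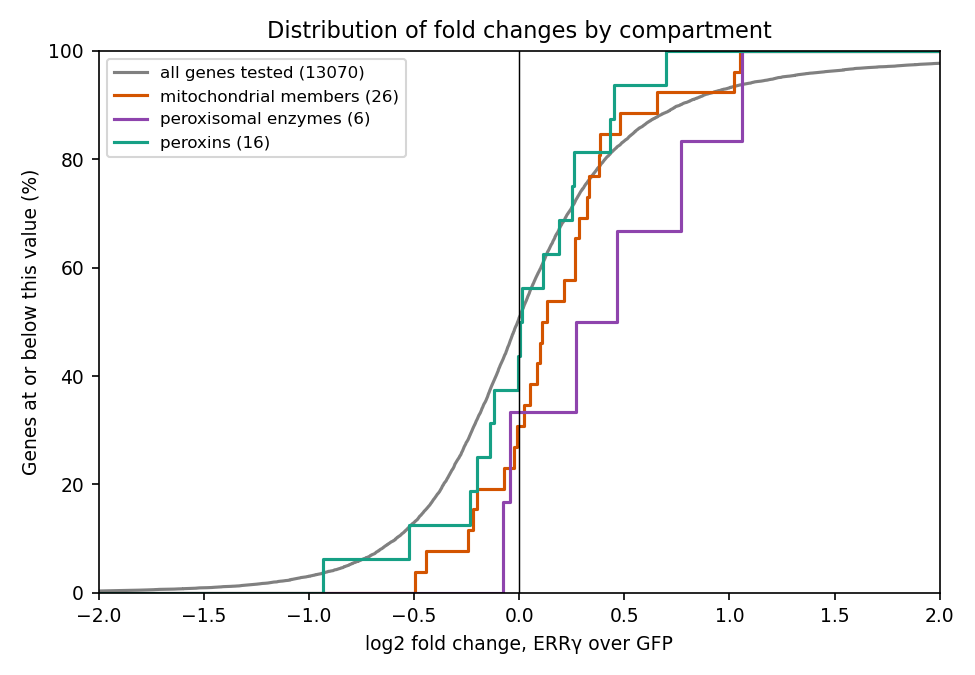
Cumulative distribution of log2 fold changes (x axis, ERRγ over GFP) for 26 mitochondrial members, 6 peroxisomal enzymes, 16 peroxins and all 13070 genes tested (y axis, percent of genes at or below each value). The peroxin curve crosses the grey curve of all genes near zero, and the mitochondrial and peroxisomal curves lie to its right around the middle, with medians of 0.12 and 0.37.

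The promoters of Acadvl and Acox3 are shown because these members rose together, and that of Acadm because it was the mitochondrial member with the longest run of ERR-type letters. Sequences are RefSeq's on GRCm38.p6, 250 bases before to 50 after the start site, read 5′ to 3′ on the gene's strand; capitals mark AGGTCA on either strand. Acadvl lies at chr11:70015379-70015678 (minus strand), Acox3 at chr5:35582784-35583083 (plus strand) and Acadm at chr3:153944594-153944893 (minus strand).
Acadvl: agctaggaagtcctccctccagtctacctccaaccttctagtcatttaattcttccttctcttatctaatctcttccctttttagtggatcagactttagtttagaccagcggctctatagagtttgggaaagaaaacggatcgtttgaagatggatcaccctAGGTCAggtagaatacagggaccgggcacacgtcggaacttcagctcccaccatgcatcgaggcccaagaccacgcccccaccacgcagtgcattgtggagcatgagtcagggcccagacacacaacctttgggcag
Acox3: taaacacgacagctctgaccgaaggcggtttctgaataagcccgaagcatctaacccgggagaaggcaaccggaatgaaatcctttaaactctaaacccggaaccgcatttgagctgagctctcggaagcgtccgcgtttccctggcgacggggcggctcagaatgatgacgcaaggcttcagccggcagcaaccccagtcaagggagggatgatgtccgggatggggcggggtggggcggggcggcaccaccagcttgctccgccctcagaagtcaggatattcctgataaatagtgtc
Acadm: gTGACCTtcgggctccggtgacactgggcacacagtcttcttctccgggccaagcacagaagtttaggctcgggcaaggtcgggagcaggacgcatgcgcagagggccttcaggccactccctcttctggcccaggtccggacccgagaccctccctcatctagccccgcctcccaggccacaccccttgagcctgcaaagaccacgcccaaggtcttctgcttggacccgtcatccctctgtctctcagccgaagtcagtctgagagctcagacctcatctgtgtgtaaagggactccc
Promoters matched 38 of the 50 members by symbol, as 43 windows. Acat1, which also rose, was among the 12 members without a window, so its promoter was not searched. The ERR element, searched as TNAAGGTCA on both strands, stood in 0 of the 38 members' windows and in 1.28% of all 32851 windows. The direct repeat bound by PPAR dimers, a pair of AGGTCA with 1 base between them, was in none of the members' windows either and in 0.0396% of all. Shorter letters inside these elements were searched after that. AAGGTCA was found in 2 members, Acadm and Pex11g, which is 5.26% of those matched, against 5.38% of all genes with a window. AGGTCA was found in 7 members (18.4%, against 18.1% of all genes), among them Acadvl, at 87 to 82 bases before its start, Cpt1a, Echs1 and Phyh, and it also covers the AAGGTCA matches. The window of Acox3 held none of these letters. Such matches are descriptions of letters in a short window, not binding sites.

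Of the 4 acyl-CoA dehydrogenases, which start each turn of the mitochondrial spiral, 1 rose. Acadvl encodes the very-long-chain enzyme of the inner membrane. It stood at 76.2 and 83.0 CPM with ERRγ, against 38.6 and 39.9 CPM with GFP. The groups were well apart, and the level was 2.03-fold that with GFP (adjusted p = 0.00614, edgeR; log2 fold change 1.02, SE 0.14). Acadl, the long-chain enzyme of the matrix, was at 167 and 190 CPM with ERRγ and at 201 and 209 CPM with GFP. Both ERRγ libraries lay below both GFP libraries, but the log2 fold change of −0.20 did not pass (interval −0.52 to 0.11, adjusted p = 0.422). Acadm, the medium-chain enzyme, had 30.1 and 28.5 CPM with ERRγ and 20.9 and 25.7 CPM with GFP. Its log2 fold change of 0.33 had an interval of −0.08 to 0.75. The short-chain enzyme Acads overlapped between groups, with 89.4 and 101 CPM with ERRγ and 95.05 and 105 CPM with GFP. Acadvl was the dehydrogenase that passed; whether its fold change differed from those of Acadl, Acadm or Acads was not tested. The gene spans 70010183 to 70015411 on the minus strand of chromosome 11 (GRCm38, GENCODE M21). Its last base lies within Dvl2 on the opposite strand, an overlap of 2119 bases, and reads of either gene could be counted for the other because the use of strand is not given in the sources used here. Dvl2's own row held 11.5 and 12.4 CPM with ERRγ and 10.1 and 12.6 CPM with GFP, and its groups overlapped (log2 fold change 0.08, adjusted p = 0.898).

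The later steps of the spiral gave a single rise. Acat1, the mitochondrial acetoacetyl-CoA thiolase, which also acts in ketone body use and isoleucine breakdown, had 70.2 and 77.4 CPM with ERRγ and 32.6 and 38.7 CPM with GFP. The groups did not overlap, and its level was 2.07-fold that with GFP (adjusted p = 0.00788, edgeR; log2 fold change 1.05, SE 0.15). It spans 53580522 to 53610382 on the minus strand of chromosome 9 and overlaps no other gene of that annotation. Acaa2, the thiolase of longer chains, had 43.2 and 37.3 CPM with ERRγ and 37.4 and 37.9 CPM with GFP, and the groups overlapped (log2 fold change 0.10, interval −0.25 to 0.44). Hadha and Hadhb encode the α and β subunits of the trifunctional protein and lie head to head on chromosome 5. Their start sites are 273 bases apart in the RefSeq promoter windows. In GENCODE M21 the genes start nearer each other, at 30155162 for Hadha and 30155248 for Hadhb. Hadha stood at 154 and 166 CPM with ERRγ and 121 and 124 CPM with GFP, and Hadhb at 30.4 and 37.8 CPM with ERRγ and 27.4 and 29.3 CPM with GFP. In both genes the ERRγ libraries were higher, with log2 fold changes of 0.38 for Hadha (interval 0.08 to 0.68) and 0.27 for Hadhb (−0.13 to 0.66). Neither passed after adjustment over all genes (adjusted p = 0.124 for Hadha and 0.401 for Hadhb). Echs1, the short-chain enoyl-CoA hydratase, was likewise higher in both ERRγ libraries without passing (34.3 and 37.9 CPM, against 30.1 and 29.2 CPM with GFP). Hadh, the short-chain hydroxyacyl-CoA dehydrogenase, overlapped between groups, with 83.2 and 84.4 CPM with ERRγ and 80.0 and 90.5 CPM with GFP (log2 fold change −0.02).

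**Figure D2:**
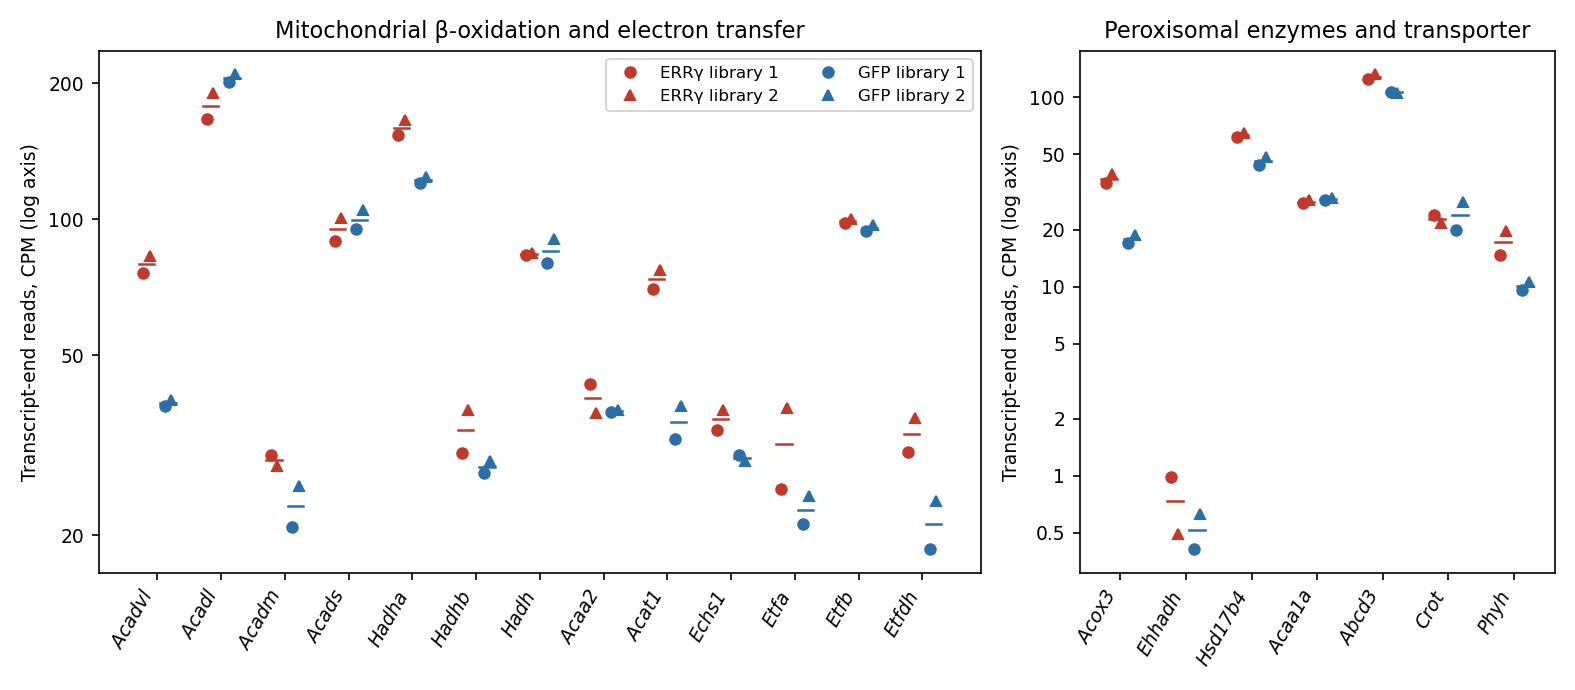
CPM (y axis, log scale) of the mitochondrial spiral and electron transfer genes (left) and of the peroxisomal enzymes and transporter (right) in each library; circles are libraries 1, triangles libraries 2, lines group means. For Acadvl, Acat1 and Acox3 the ERRγ points lie well above the GFP points, whereas those of Acads, Hadh and Acaa1a lie close to them.

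The genes that carry electrons away from the dehydrogenases were higher in both ERRγ libraries in 3 of 3 cases, and in this class 0 passed. Among all genes tested, 27.4% lay higher in this way. Etfdh encodes the oxidoreductase that hands electrons to ubiquinone. It had 30.6 and 36.5 CPM with ERRγ and 18.6 and 23.9 CPM with GFP (log2 fold change 0.66, interval 0.21 to 1.10, adjusted p = 0.0901). Etfa, a subunit of the electron transfer flavoprotein, had 25.3 and 38.3 CPM with ERRγ and 21.2 and 24.4 CPM with GFP. Library 2 of ERRγ held most of that difference, and the log2 fold change was 0.48 (adjusted p = 0.254). Etfb, the other subunit, stood at 98.3 and 100.5 CPM with ERRγ and 94.4 and 97.3 CPM with GFP, a log2 fold change of 0.05 with an interval of −0.24 to 0.35. At an unadjusted p under 0.05, 1 of the 3 was higher, against 13.6% of all genes, and DESeq2 and limma-voom called 0.

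Entry into the pathway showed 0 genes past the threshold among 4 acyl-CoA synthetases and 5 carnitine acyltransferases, with 0 at an unadjusted p under 0.05 and 0 by DESeq2 or limma-voom. Among all genes tested, 5.06% rose and 1.78% fell. At an unadjusted p under 0.05, 13.6% were higher and 9.53% lower. So few genes cannot show a share below that background. Cpt1a, the liver-type transferase of the outer membrane and the pathway's main point of control, had 62.8 and 57.5 CPM with ERRγ and 51.0 and 49.3 CPM with GFP. Both ERRγ libraries were higher, and the log2 fold change of 0.26 had an interval of −0.05 to 0.58. Cpt1b, the muscle-type form and a textbook target of PPARs in heart, was low throughout, at 18 and 20 counts in the ERRγ libraries and 32 and 18 counts in the GFP libraries. Its groups overlapped and its interval was wide (log2 fold change −0.44, −1.75 to 0.86); another annotated coding gene, Gm44502, covers it on the same strand. Cpt1c, a form known from brain that sits in the endoplasmic reticulum, was counted 69 and 52 times in the ERRγ libraries, against 51 and 39 times in the GFP libraries. Cpt2, the inner-membrane transferase, had 29.1 and 26.7 CPM with ERRγ and 29.4 and 35.5 CPM with GFP. Its ERRγ libraries lay just below the GFP libraries, with a log2 fold change of −0.22 (interval −0.61 to 0.17). Crat, the acetyl-carnitine enzyme of both organelles, overlapped between groups (log2 fold change 0.02, interval −0.51 to 0.56). Among the synthetases the log2 fold changes ran from 0.09 for Acsl5 to 0.32 for Acsl1. Acsl1 had 10.9 and 10.4 CPM with ERRγ and 6.65 and 10.3 CPM with GFP, so that GFP library 1 alone stood apart. Acsl3, at 44.2 and 39.7 CPM with ERRγ and 35.9 and 36.4 CPM with GFP, was higher in both ERRγ libraries (log2 fold change 0.21, adjusted p = 0.424). Acsl4, which prefers arachidonate, had a log2 fold change of 0.11.

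Among the auxiliary enzymes, which deal with double bonds and free acyl-CoA, the median log2 fold change was −0.13 and 3 of 4 values were below zero. Decr1, the mitochondrial dienoyl-CoA reductase needed for polyunsaturated chains, had 36.0 and 32.8 CPM with ERRγ and 48.5 and 48.4 CPM with GFP. The groups were apart, and the log2 fold change of −0.49 had an interval of −0.82 to −0.17, yet it missed the threshold (adjusted p = 0.0819). Acot2, a matrix thioesterase with close relatives in a gene cluster that may share its reads, overlapped between groups, at 64.0 and 57.6 CPM with ERRγ and 85.4 and 58.6 CPM with GFP. The enoyl-CoA isomerases Eci1 and Eci2 also overlapped, with log2 fold changes of 0.13 and −0.01. In this class 1 of 4 genes was lower at an unadjusted p under 0.05, against 9.53% of all genes. By edgeR, DESeq2 and limma-voom 0 were called in either direction.

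**Figure D3:**
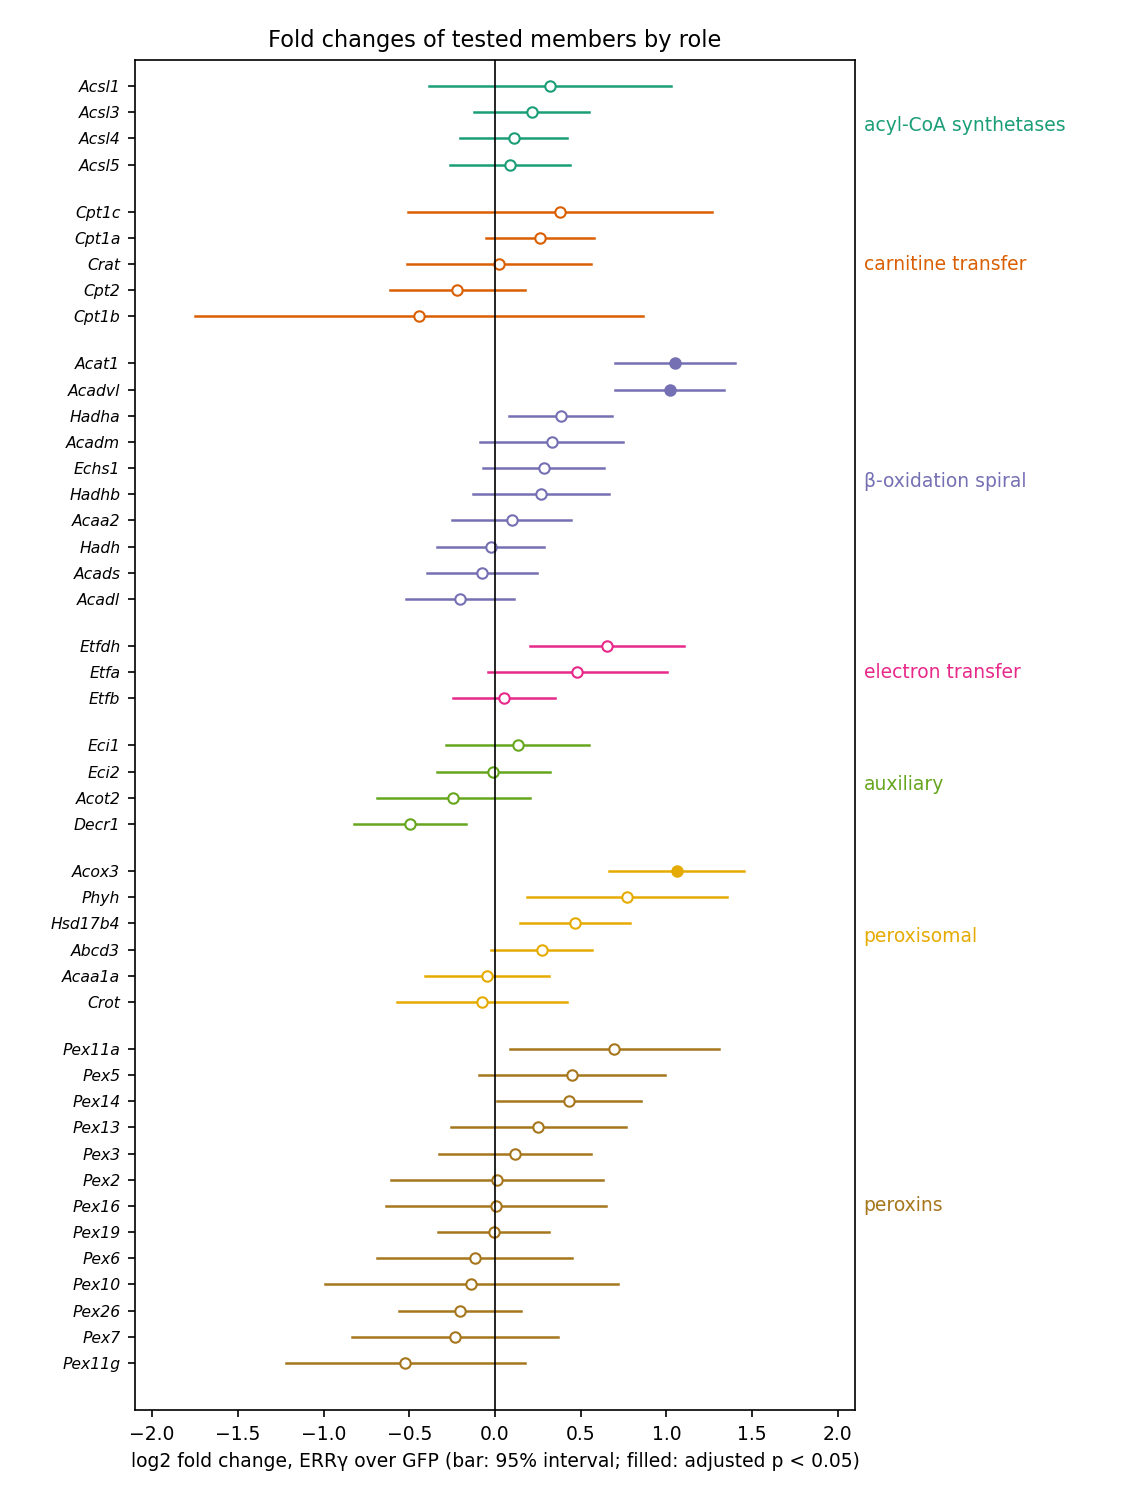
Log2 fold change (x axis, ERRγ over GFP) of the tested members reported by name, grouped by role from top to bottom, with the 95% interval of the fit as a bar; filled points passed an adjusted p of 0.05. Acat1, Acadvl and Acox3 are the filled points, between 1.02 and 1.06, and the bar of Decr1, at −0.49, lies wholly below zero.

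In peroxisomes the oxidase gene rose while the steps after it varied. Acox3 encodes an acyl-CoA oxidase of branched chains. It had 35.2 and 39.1 CPM with ERRγ and 17.0 and 18.7 CPM with GFP, with the groups well apart. That was 2.08-fold the GFP level (log2 fold change 1.06, SE 0.17, adjusted p = 0.0111, edgeR). The gene spans 35583040 to 35615352 on the plus strand of chromosome 5 and overlaps no coding gene, though an antisense RNA lies within it. Ehhadh, the bifunctional enzyme of the classical PPARα-driven spiral, was barely read, at 11 and 5 counts in the ERRγ libraries and 4 and 7 counts in the GFP libraries. Hsd17b4, the bifunctional enzyme of branched and very long chains, stood at 62.0 and 64.9 CPM with ERRγ and 43.7 and 48.2 CPM with GFP. Both ERRγ libraries were higher, and its log2 fold change of 0.47 had an interval of 0.15 to 0.79 (adjusted p = 0.0911). Phyh, which starts the α-oxidation of phytanic acid, had 14.7 and 19.8 CPM with ERRγ and 9.62 and 10.6 CPM with GFP. It was higher in both ERRγ libraries as well (log2 fold change 0.77, interval 0.19 to 1.35, adjusted p = 0.115). Abcd3, the membrane transporter that brings in branched and long acyl-CoA, had 124 and 132 CPM with ERRγ and 107 and 105 CPM with GFP (log2 fold change 0.27, adjusted p = 0.254). The thiolase Acaa1a, at 27.6 and 28.5 CPM with ERRγ and 28.6 and 29.3 CPM with GFP, and Crot, the carnitine octanoyltransferase that readies shortened chains for export, showed little difference. Their log2 fold changes were −0.05 for Acaa1a (interval −0.41 to 0.32) and −0.08 for Crot (−0.57 to 0.42). Acaa1a has a close copy, Acaa1b, and the split of reads between them is uncertain.

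Pairs of enzymes that carry out a like step were compared as the log2 ratio of the counts of a mitochondrial enzyme to those of a peroxisomal one, each with 0.5 added, in each library. For the first oxidation, Acadvl over Acox3, the log2 ratio was 1.11 and 1.08 with ERRγ and 1.18 and 1.09 with GFP. Both genes had risen, and their ratio differed by only −0.04 between the groups. For thiolytic cleavage, Acaa2 over Acaa1a, it was 0.65 and 0.39 with ERRγ and 0.39 and 0.37 with GFP, and for carnitine transfer, Cpt2 over Crot, 0.29 and 0.29 with ERRγ and 0.56 and 0.34 with GFP. The ratios of Hadha to Ehhadh and of Eci1 to Eci2 overlapped between groups, with differences of −0.04 and 0.13. Eci2 is counted among the mitochondrial members above but is known in both organelles, so its pair does not separate the classes. With 5 counts added instead, that of Hadha to Ehhadh was 0.13. Of 5 pairs, 2 reached p = 0.333 in an exact two-sided permutation test, the smallest value that 2 against 2 libraries allow (adjusted p = 0.833 for both), and the others gave 0.667 or 1.0.

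Among the 16 tested peroxins, 0 passed in edgeR, DESeq2 or limma-voom; at an unadjusted p under 0.05, 2 were higher and 1 lower. Those are 12.5% and 6.25% of them, near or below the 13.6% and 9.53% of all genes. Pex11a, an elongation factor of peroxisome division that PPARα ligands induce in rodent liver, had 18.6 and 14.7 CPM with ERRγ and 8.80 and 11.8 CPM with GFP. The groups did not overlap (log2 fold change 0.70, interval 0.09 to 1.30, adjusted p = 0.163). Its relative Pex11g had 8.48 and 7.51 CPM with ERRγ and 9.21 and 13.7 CPM with GFP. Both ERRγ libraries were lower, and the log2 fold change was −0.52 (interval −1.22 to 0.17). The matrix import genes Pex14, the docking protein, and Pex5, the receptor for the type 1 targeting signal, were higher in both ERRγ libraries. Pex14 had 32.4 and 42.5 CPM with ERRγ and 26.6 and 28.8 CPM with GFP (log2 fold change 0.43, adjusted p = 0.202). Pex5 had 23.2 and 23.3 CPM with ERRγ and 13.6 and 20.4 CPM with GFP (0.45, adjusted p = 0.299). Their docking partner Pex13 stood at 0.25, and Pex7, the receptor of the type 2 signal, at −0.23 on the log2 scale. Pex2 and Pex10, RING peroxins that ubiquitinate the receptor for its return to the cytosol, had log2 fold changes of 0.01 and −0.14. Pex6, an ATPase that extracts the receptor, and Pex26, its membrane anchor, were at −0.12 and −0.20. The genes for membrane protein insertion, Pex3, Pex16 and Pex19, were at 0.12, 0.00 and −0.01. Pex5l, a relative of Pex5 known from brain ion channels rather than from peroxisomes, had no count with ERRγ and 3 and 2 counts with GFP.

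Genes around the pathway, in 6 lists, included rises in ketone body use and in peroxisomal oxidation. Of 88 tested genes in these lists, 10 rose and 3 fell, which is 11.4% and 3.41%, against the 5.06% and 1.78% of all genes. The lists were drawn up with earlier results of these data known, so this excess is no independent support. Oxct1, the enzyme that activates acetoacetate for use as fuel, had 137 and 133 CPM with ERRγ and 49.7 and 35.5 CPM with GFP. That was 3.17-fold the GFP level (log2 fold change 1.67, SE 0.18, adjusted p = 0.00264, edgeR). Bdh1, the hydroxybutyrate dehydrogenase of the step before, had 37.7 and 37.7 CPM with ERRγ and 12.1 and 16.0 CPM with GFP, 2.68-fold higher with ERRγ (adjusted p = 0.00641). With Acat1, which splits the acetoacetyl-CoA that Oxct1 makes, the genes of the 3 steps of ketone body use rose. They were 2 of the 6 genes of the ketone list, which does not hold Acat1.

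Of 17 tested other genes of peroxisomal oxidation, 3 rose, where 5.06% of all genes did. Like the lists below, this list was drawn up with earlier results of these data known. Nudt19, a peroxisomal coenzyme A diphosphatase, had 35.2 and 35.0 CPM with ERRγ and 12.0 and 12.5 CPM with GFP (2.87-fold higher, adjusted p = 0.00355, edgeR). Scp2, the sterol carrier and thiolase of branched chains, had 66.6 and 77.4 CPM with ERRγ and 45.8 and 39.6 CPM with GFP (1.69-fold, adjusted p = 0.0273). Acot5, an acyl-CoA thioesterase of a mouse gene cluster whose members may share reads, was counted 70 and 41 times in the ERRγ libraries, against 5 and 4 times in the GFP libraries. Nudt19 and Scp2 were each apart between the groups by more than the libraries of a group differed. The annotation has Scp2 overlap Podn on the same strand. Of 23 tested other mitochondrial oxidation genes, Mcee rose, the methylmalonyl-CoA epimerase for odd-chain ends, with 50.1 and 43.7 CPM with ERRγ and 23.0 and 26.4 CPM with GFP (adjusted p = 0.0159). Slc25a20, the carrier that brings acyl-carnitines through the inner membrane, overlapped between groups (log2 fold change 0.05). In the list of other peroxisomal functions 1 of 15 rose, Prdx5, an antioxidant enzyme of several organelles. It had 244 and 268 CPM with ERRγ and 121 and 132 CPM with GFP, a log2 fold change of 1.02 (adjusted p = 0.00614). It overlaps Trmt112 on the opposite strand. Of 13 tested genes of uptake and carnitine supply 2 rose, the fatty acid binding proteins Fabp4 and Fabp5. Fabp4 was counted 85 and 55 times in the ERRγ libraries, against 5 and 14 times in the GFP libraries, and is also in the adipocyte list given above; Fabp5 had 37.7 and 32.4 CPM with ERRγ and 18.5 and 14.2 CPM with GFP (adjusted p = 0.0183).

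Of 14 tested regulators, 3 fell and 1 rose, where 1.78% of all genes fell and 5.06% rose. Angptl4, a secreted inhibitor of lipoprotein lipase, had 42.4 and 36.3 CPM with ERRγ and 96.8 and 100.4 CPM with GFP, a 2.51-fold lower level (log2 fold change −1.33, SE 0.14, adjusted p = 0.00272, edgeR). Pdk4, the kinase that restrains pyruvate dehydrogenase, had 14.3 and 12.7 CPM with ERRγ and 27.6 and 26.0 CPM with GFP (log2 fold change −0.99, adjusted p = 0.0238). Ppard, which encodes PPARδ, had 33.5 and 30.8 CPM with ERRγ and 59.9 and 57.3 CPM with GFP (−0.86, adjusted p = 0.0115). In all 3 genes the groups lay well apart. Sirt3, a mitochondrial deacetylase, was counted 74 and 63 times in the ERRγ libraries, against 15 and 24 times in the GFP libraries (log2 fold change 1.79, adjusted p = 0.0433) and overlaps Psmd13 and Ric8a on the opposite strand. Its call ended under limma-voom (adjusted p = 0.0532) and with the replicate number as a block (0.0509). Ppara was higher in library 2 of each group, at 25 and 65 counts in the ERRγ libraries and 15 and 46 counts in the GFP libraries. Ppargc1a, the coactivator of oxidative genes, was counted 3 and 5 times with ERRγ, against 5 and 9 times with GFP, too few to test.

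**Figure D4:**
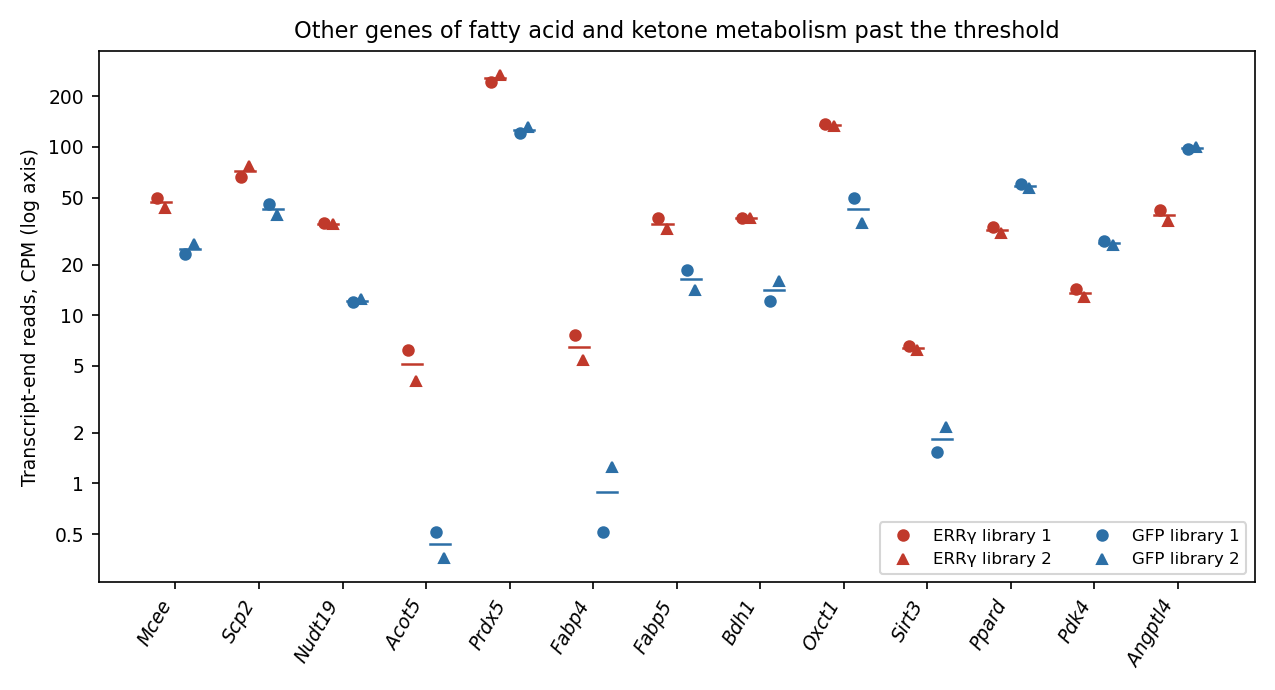
CPM (y axis, log scale) in each library of the 13 genes from the surrounding lists that passed an adjusted p of 0.05; circles are libraries 1, triangles libraries 2, lines group means. Oxct1, Bdh1 and Nudt19 lie higher with ERRγ, and Ppard, Pdk4 and Angptl4 lie lower.

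Which members passed depended on single libraries, as did calls over all genes. Without GFP library 1 the calls for Acadvl, Acat1 and Acox3 ended (adjusted p = 0.111, 0.129 and 0.151), and without GFP library 2 they ended as well (0.0833, 0.0636 and 0.0947), while their log2 fold changes stayed between 0.93 and 1.18. Over all genes 0.676% rose and 0.0514% fell without GFP library 1, and 0.872% rose and 0.147% fell without GFP library 2. Without ERRγ library 1, 9 members rose and 1 fell: Hadha, Etfa, Etfdh, Hsd17b4, Phyh and Pex14 joined the higher ones and Decr1 was the lower one. In that fit 11.8% of all genes rose and 8.13% fell, so calls grew across the whole table. Without ERRγ library 2, the library with the most Esrrg, 4 rose, Pex11a being added, while 7.19% of all genes rose and 4.72% fell. Oxct1 and Angptl4 kept their calls whichever library was left out. Nudt19 and Bdh1 lost theirs without GFP library 1, and Mcee, Scp2, Acot5, Prdx5, Fabp4, Fabp5, Ppard, Pdk4 and Sirt3 lost theirs when either GFP library was left out. The gap in Esrrg between the ERRγ libraries had no like gap among the members, whose median log2 difference of library 2 over library 1 was 0.01 with ERRγ and 0.04 with GFP. For Acadvl, Acat1 and Acox3 the second ERRγ library exceeded the first by less than the groups differed. In 9 of the 50 members the last base lies in another coding gene, in 6 of them on the opposite strand only, among them Acsl5, Crat, Hadha and Acaa1a besides Acadvl, and the counts of these genes could include reads of their neighbours.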

How the data were processed

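Poly(A)-end RNA libraries (Lexogen QuantSeq) of 4 acinar cell samples were used, 2 with ERRγ and 2 with GFP. The authors deposited raw read counts per gene, and per the submitters' processing notes Bowtie2, edgeR and the mm10 genome were used; for their versions, the read counter, the annotation and any use of strand the sources used here give nothing. Totals were 10105604 to 11012351 counts per library, which limits genes with few counts; intervals and floors cover counting error only where they rest on counts alone.

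Counts were fitted here across all genes with edgeR 4.0.16 in R 4.3.3 (quasi-likelihood test, TMM, filterByExpr with a minimum count of 10), ERRγ over GFP, with p-values adjusted by Benjamini-Hochberg over 13070 genes and a threshold of 0.05. Alternatives were other size factors, library totals, other filters, DESeq2 1.42.0, limma-voom (limma 3.58.1), the replicate number as a block, other class membership and leaving out each library. In simulated data with 2 libraries per group, edgeR recovered 55.7% of genes changed 2-fold and 8.06% of those changed 1.5-fold, and 9.76% of its calls were false.

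The members and lists were chosen with earlier results of these data known. Any member may be named; library values are given for members past the threshold, the 2 of smallest p per role and a listed set. Genes of the other pathway lists are named where they passed, besides Ppara, Ppargc1a, Slc25a20 and Pdk4. The promoters shown, and the shorter letters AAGGTCA and AGGTCA, were chosen after seeing the data. Some genes are counted in their class but not reported here by name. Protein sequences were not used here.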

Additional observations from a re-analysis of the deposited data

How the results depend on the processing

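Acadvl, Acat1 and Acox3 kept their calls under each of the 7 settings that used all 4 libraries, and lost them when either GFP library was left out. Leaving out 1 library gave 0 to 9 members called higher and 0 to 1 lower (mitochondrial 0 to 5 and 0 to 1, peroxisomal 0 to 3 higher, peroxins 0 to 1 higher), and 1 to 18 other pathway genes higher and 1 to 4 lower. Over all genes the same fits called 92 to 1597 higher and 7 to 1098 lower. The median log2 fold change then ran from 0.081 to 0.15 over all members, 0.11 to 0.17 over the mitochondrial ones, 0.28 to 0.54 over the peroxisomal enzymes and −0.041 to 0.083 over the peroxins. Log2 fold changes that turned sign ran from −0.071 to 0.26 for Acsl5, −0.87 to 0.14 for Cpt1b, −0.17 to 0.19 for Crat, −0.16 to 0.0099 for Acads, −0.12 to 0.065 for Hadh, −0.012 to 0.19 for Acaa2, −0.074 to 0.31 for Eci1, −0.058 to 0.034 for Eci2, −0.49 to 0.048 for Acot2 and −0.31 to 0.19 for Crot. Among peroxins they ran from −0.18 to 0.17 for Pex16, −0.082 to 0.063 for Pex19, −0.26 to 0.33 for Pex2, −0.25 to 0.00089 for Pex6 and −0.45 to 0.0033 for Pex7, and elsewhere from −0.36 to 1.48 for Ppara and −0.079 to 0.18 for Slc25a20. The pair differences ran from −0.083 to 0.0055 for Acadvl/Acox3, −0.55 to 0.47 for Hadha/Ehhadh and −0.11 to 0.37 for Eci1/Eci2; with 5 counts added, Hadha/Ehhadh was 0.13.

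Scaling by library totals gave medians of 0.15 over all members, 0.15 over mitochondrial members and 0.041 over peroxins, and turned Hadh to 0.0029, Eci2 to 0.023 and Pex19 to 0.028. Without a filter, 4 members were called higher and 1, the mitochondrial Decr1, was called lower. There 16 other pathway genes were called higher, and the peroxisomal median was 0.46. That fit called 1271 of 17888 genes higher and 738 lower (7.11% and 4.13%). A mean of at least 5 CPM gave medians of 0.13 over all members, 0.13 over mitochondrial members and 0.065 over peroxins. DESeq2 gave a peroxisomal median of 0.46. Counting Crat and Eci2 as peroxisomal and leaving out Acsl3, Acsl4, Cpt1c and Pex5l gave 0.10 over all members and 0.15 over peroxisomal enzymes. Pex16, near zero, was −0.0060 without a filter, −0.0038 with DESeq2, −0.015 with limma-voom and −0.0029 with the replicate block. The labels do not say whether the replicate numbers pair the samples. Same-numbered libraries had a correlation of 0.0093 in their deviations from the group means, a value over all genes that cannot settle it. With the number as a block, 776 genes rose and 315 fell, against 661 and 233 without it. The cause of these shifts was not tested. With 2 libraries per group, depth and spread limit what can be told of low genes such as Ehhadh and Cpt1b.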
